A study of Homo sapiens with 6 samples.

Results

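The 38 C2H2 zinc-finger genes of 19p13.2, on the short arm of chromosome 19, were followed in HAP1 and HELLS KO cells. They were chosen by name, as the listed ZNF symbols whose Ensembl identifier is a row of the count table, and 38 of the 60483 rows were taken. In GRCh38 the genes lie between the start of ZNF414 (8509678 to 8514167) and the end of ZNF490 (12576100 to 12640098), over 4130 kb. They form a distal stretch of 13 genes from ZNF414 to ZNF846 and a proximal stretch of 25 genes from ZNF653 to ZNF791, with 1690 kb between them. HAP1 (C631) is a near-haploid human line derived from chronic myelogenous leukemia. The HELLS KO line is 1 purchased clone of it, in which a base inserted in exon 3 disrupts the HELLS gene. Both were grown under normal growth conditions without a drug, and 3 RNA libraries of each genotype were sequenced. Because 1 clone was set against 1 parental line, an effect of HELLS loss and a difference of the clone cannot be told apart, and in RNA from whole cultures fewer cells with a transcript and less transcript per cell cannot be told apart either.

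C2H2 zinc-finger proteins bind DNA through tandem arrays of short zinc-binding loops. Many of those on chromosome 19 also carry a KRAB domain, which recruits the corepressor TRIM28 and, through it, the histone methyltransferase SETDB1 and HP1 proteins. The genes arose by tandem duplication and lie side by side in clusters that are themselves often covered by repressive chromatin. HELLS is an SNF2-family remodeller known for its part in DNA methylation. In HAP1 the study measured global CpG methylation by ELISA and saw no effect of HELLS loss.

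Of the 38 genes, 32 had enough counts to be tested, and 5 of these were called higher in HELLS KO cells, or 15.6%. In all 17925 genes tested the share called higher was 1.5%. A call required an adjusted p under 0.05 (quasi-likelihood test of edgeR, with Benjamini-Hochberg correction across every tested gene) and a log2 fold change of at least 1. The 5 genes were ZNF439, ZNF69, ZNF433, ZNF878 and ZNF844. They are all in the proximal stretch, and no other member lies among them but ZNF700 and ZNF763. The genes from ZNF439 to ZNF844 span 233 kb (11848726 to 12081565). The 5 called genes passed the filter on low counts through their HELLS KO libraries alone. A member with every HAP1 library under that filter could be tested only where all its HELLS KO libraries passed. The share of 15.6% is therefore no rate among members low in HAP1. No member was called lower, against 0.72% of all tested genes. ZNF563 alone fell at an unadjusted p under 0.05, and DESeq2 called 0 members lower, against 0.947% of the genes it tested. The median log2 fold change was 0.11 over the 32 members and 0.0064 over all tested genes.

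The promoters of these genes are shown to set the called genes beside their expressed neighbour ZNF700, which was not called, and ZNF560 of the distal stretch. Each sequence is the part of the 250 bases before the RefSeq start (GRCh38.p14) that lies outside the GENCODE gene body, written 5′ to 3′ on the strand of the gene, with CG dinucleotides in capitals. ZNF439 (chr19:11848476-11848725), ZNF69 (chr19:11887532-11887781), ZNF700 (chr19:11924857-11925067) and ZNF844 (chr19:12064481-12064730) lie on the + strand. ZNF433 (chr19:12035742-12035929), ZNF878 (chr19:12052962-12053211) and ZNF560 (chr19:9498617-9498866) lie on the - strand.
ZNF439: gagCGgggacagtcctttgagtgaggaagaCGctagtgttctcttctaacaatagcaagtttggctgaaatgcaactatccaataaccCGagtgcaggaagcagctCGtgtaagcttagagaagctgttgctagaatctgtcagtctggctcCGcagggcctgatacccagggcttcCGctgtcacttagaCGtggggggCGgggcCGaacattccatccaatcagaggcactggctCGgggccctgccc
ZNF69: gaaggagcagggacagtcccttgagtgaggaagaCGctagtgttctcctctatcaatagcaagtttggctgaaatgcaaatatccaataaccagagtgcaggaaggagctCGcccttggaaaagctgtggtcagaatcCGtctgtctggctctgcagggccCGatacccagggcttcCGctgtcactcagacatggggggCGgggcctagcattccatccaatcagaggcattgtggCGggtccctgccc
ZNF700: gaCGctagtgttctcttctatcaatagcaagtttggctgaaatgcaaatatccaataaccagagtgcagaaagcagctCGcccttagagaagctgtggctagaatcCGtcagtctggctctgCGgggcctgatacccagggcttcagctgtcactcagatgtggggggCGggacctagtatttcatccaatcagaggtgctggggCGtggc
ZNF433: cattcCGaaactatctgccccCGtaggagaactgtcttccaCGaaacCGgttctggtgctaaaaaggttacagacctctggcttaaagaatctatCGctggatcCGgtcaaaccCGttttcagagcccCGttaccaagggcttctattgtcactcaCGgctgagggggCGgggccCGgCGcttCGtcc
ZNF878: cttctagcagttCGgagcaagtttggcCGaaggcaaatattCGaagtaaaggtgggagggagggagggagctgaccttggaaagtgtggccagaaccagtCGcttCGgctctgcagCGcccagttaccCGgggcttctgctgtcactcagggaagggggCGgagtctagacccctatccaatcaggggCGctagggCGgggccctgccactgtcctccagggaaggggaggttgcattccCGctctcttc
ZNF844: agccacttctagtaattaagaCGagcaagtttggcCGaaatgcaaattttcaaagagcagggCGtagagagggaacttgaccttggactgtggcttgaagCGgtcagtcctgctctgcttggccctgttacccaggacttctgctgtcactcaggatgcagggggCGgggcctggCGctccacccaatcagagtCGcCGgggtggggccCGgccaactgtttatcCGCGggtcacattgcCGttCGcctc
ZNF560: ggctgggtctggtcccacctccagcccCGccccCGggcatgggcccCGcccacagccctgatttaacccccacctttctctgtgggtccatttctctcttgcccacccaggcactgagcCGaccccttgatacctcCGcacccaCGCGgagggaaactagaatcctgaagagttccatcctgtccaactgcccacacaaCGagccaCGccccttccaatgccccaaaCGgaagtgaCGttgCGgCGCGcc

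RefSeq gave 39 such windows for 36 of the 38 members, all identical to the hg38 genome sequence. ZNF559 and ZNF763 were without one. The 5 called genes had between 7 and 18 CG dinucleotides in the full 250 bases, with a median of 11.0. The 28 windows of members with at least 1 CPM in HAP1 had between 3 and 26, with a median of 14.0, and the median of all 35116 RefSeq windows was 11.0. The ranges of called and expressed members therefore overlapped. Of all pairs of member windows, each read on the strand of its gene, ZNF69 and ZNF700 had the longest stretch in common, the 53 bases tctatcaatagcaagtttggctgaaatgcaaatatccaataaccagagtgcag. The median over the 741 pairs was 9.0 bases. The windows of ZNF490 and ZNF791, which start in opposite directions, overlap in the genome and were not compared across strands. ZNF439 and ZNF69, which lie next to each other and were both called, had 27 bases in common. Between ZNF433, ZNF878 and ZNF844 the longest stretch was 13 to 18 bases.
The 7 letters CCAATCA, which contain the CCAAT box, were searched on both strands after the windows had been seen. They occurred in 22 of the 26 windows of the proximal stretch (84.6%), in 0 of the 13 of the distal stretch and in 6.62% of all RefSeq windows. All 5 called genes had a match, in ZNF433 outside the printed part, and so did 13 of the 28 windows of expressed members (46.4%). Those 28 windows include the expressed members of the distal stretch, where no window matched, whereas all called genes are proximal. The motif was therefore shared by called and uncalled genes of the proximal stretch. The letters TGCAAAT, part of the octamer motif, were in 2 of the 5 called windows, in 9 of the 39 windows of members and in 3.67% of all. A match describes the sequence and is no evidence of binding.

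Levels are given as CPM (counts scaled by the library total after TMM normalization), and for comparisons between genes as the deposited FPKM, which also takes the length of the gene into account. Total counts were between 13641237 and 24400187 per library, and the limit that a count of 0 allows, 3 counts, came to between 0.123 and 0.218 CPM. It covers counting error only. For HELLS itself, against which the knockout was directed, 1444, 1488 and 3671 reads were counted in HAP1 and 1410, 1375 and 2802 in HELLS KO. The log2 fold change was -0.24 (SE 0.18, adjusted p = 1.00, edgeR). The groups overlapped, and a gene count cannot show the inserted base. The study reported complete loss of the HELLS protein in this line, with a western blot. Replicate 3 of both genotypes carries a batch label and was the deepest library. Of the myeloid and erythroid markers, HBG1 and SPI1 had 0 counts in every library and KIT and RUNX1 were at 1 CPM or more, so that the labelled cell type was hardly visible in its markers. The summed level of these markers was 41.8 to 74.5 CPM in HAP1 and 29.9 to 45.8 in HELLS KO. For 5 epithelial markers it was 102 to 146 CPM and 48.5 to 65.7, with EPCAM and KRT8 called lower. For 5 fibroblast markers it was 102 to 150 and 98.8 to 125, for 4 lymphoid markers 1.25 to 2.98 and 0.630 to 1.99, and for 4 pluripotency markers 230.1 to 293 and 172 to 223. KIT and LIN28A were also called lower. Their part in the results below was not tested.

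**Figure D1:**
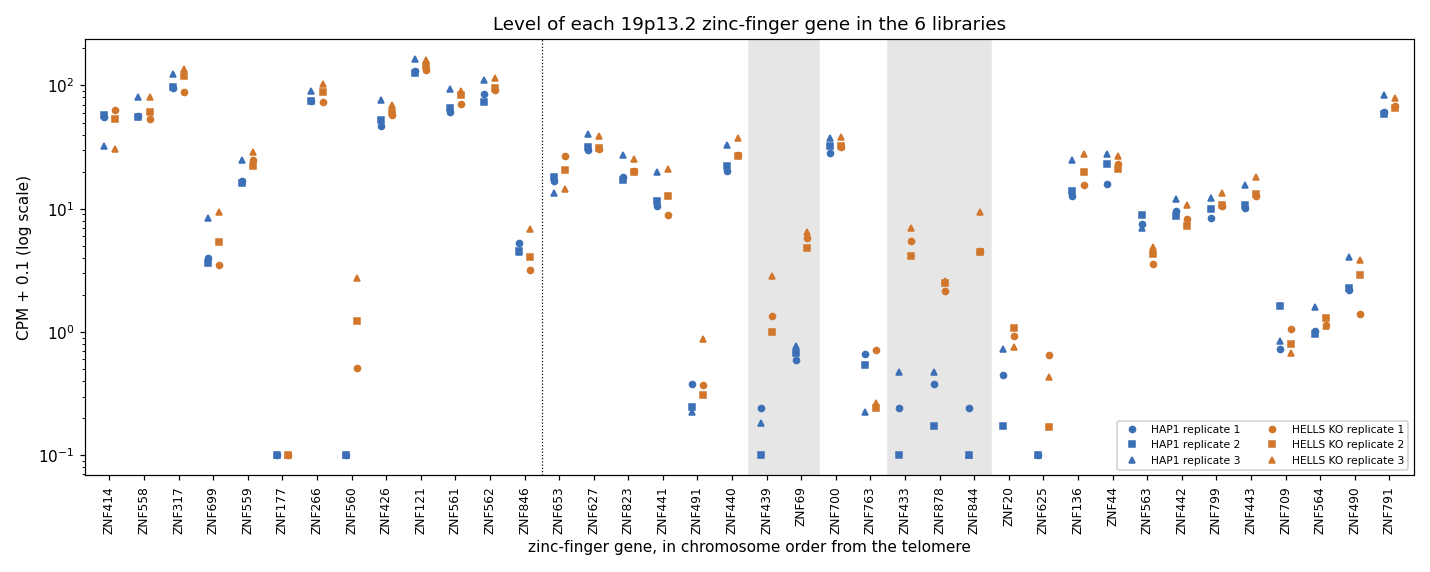
CPM + 0.1 on a log scale (y axis) of the 38 zinc-finger genes in chromosome order (x axis), with HAP1 libraries in blue and HELLS KO libraries in orange, a symbol for each replicate, grey bands for the 5 called genes and a dotted line between the stretches. The called genes sit under 1 CPM in HAP1 and between 0.910 and 9.32 CPM in HELLS KO.

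ZNF844, a C2H2 zinc-finger gene on the + strand (12064731 to 12081565), had the fewest counts in HAP1 and the largest change of the 5 called genes. In the order of replicates 1, 2 and 3, it had 2, 0 and 0 counts in the HAP1 libraries against 65, 62 and 227 in those of HELLS KO. The 3 HELLS KO libraries lay far above the 3 HAP1 libraries, and the deepest HAP1 library had no read. In CPM this was 0.0469 ± 0.0812 in HAP1 (SD, n = 3) against 6.04 ± 2.84 in HELLS KO (SD, n = 3). The log2 fold change was 7.03 (SE 0.84, adjusted p = 0.0068, edgeR), and the ratio of summed counts, scaled to library size, was 173 with a 95% counting interval from 47.5 to 1433. The wide interval comes from the 2 counts in HAP1. Leaving out single libraries gave log2 fold changes from 6.27, without HAP1 replicate 3, to 9.79, without HAP1 replicate 1, which holds both counts. With replicates 1 and 2 alone the log2 fold change was 5.76 (adjusted p = 0.014, edgeR).

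ZNF433 (12014715 to 12035741, - strand) rose from 2, 0 and 9 counts in HAP1 to 78, 58 and 167 in HELLS KO. The groups were well apart, and the highest HAP1 library was replicate 3. The level was 0.172 ± 0.190 CPM in HAP1 (SD, n = 3) against 5.43 ± 1.40 CPM in HELLS KO (SD, n = 3), a log2 fold change of 4.73 (SE 0.67, adjusted p = 0.013, edgeR). The ratio of summed counts was 26.9 (95% counting interval 14.8 to 54.5). The call was lost without HAP1 replicate 1, without HELLS KO replicate 1 and without HELLS KO replicate 2, where the adjusted p was 0.062, 0.059 and 0.063 (edgeR) and the log2 fold change 4.58, 4.75 and 4.92. Without HAP1 replicate 3 the log2 fold change was 6.11. With replicates 1 and 2 alone the log2 fold change fitted by edgeR was 5.86. In the pair of replicate 3, the difference of log2(CPM + 0.1) was 3.87. These 2 values are unlike measures, so their gap is no difference between batches.

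ZNF878 (12043805 to 12052961, - strand), which lies between ZNF433 and ZNF844, had 4, 1 and 9 counts in the HAP1 libraries against 30, 34 and 61 in those of HELLS KO. All HELLS KO libraries were above all HAP1 libraries, and their CPM values were close to each other. The level was 0.243 ± 0.155 CPM in HAP1 (SD, n = 3) against 2.32 ± 0.229 CPM in HELLS KO (SD, n = 3), and gave a log2 fold change of 3.14 (SE 0.50, adjusted p = 0.021, edgeR). The ratio of summed counts was 8.72 (95% counting interval 5.01 to 16.4). The call was lost without HAP1 replicate 1 and without any HELLS KO replicate in turn, with an adjusted p of 0.068 to 0.12 (edgeR) and a log2 fold change of 3.07 to 3.21. With replicates 1 and 2 alone it was 3.55.

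ZNF69 (11887782 to 11914329, + strand) had 7, 8 and 16 counts in the HAP1 libraries against 83, 67 and 156 in those of HELLS KO. It was the called gene with the highest level in HAP1 and the smallest SE of the 5. The level was 0.580 ± 0.0873 CPM in HAP1 (SD, n = 3) against 5.60 ± 0.863 CPM in HELLS KO (SD, n = 3), a 9.65-fold difference of the means. The log2 fold change was 3.24 (SE 0.30, adjusted p = 0.0024, edgeR), and leaving out single libraries gave 3.12 to 3.37, with the call kept each time. Among the 5 genes, only ZNF69 and ZNF844 kept their calls in all 6 of these fits.

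ZNF439 (11848726 to 11883750, + strand), the neighbour of ZNF69, had 2, 0 and 2 counts in the HAP1 libraries against 18, 13 and 67 in those of HELLS KO. The groups did not overlap, and replicate 3 of HELLS KO was well above the other HELLS KO libraries. The level was 0.0747 ± 0.0707 CPM in HAP1 (SD, n = 3) against 1.63 ± 0.983 CPM in HELLS KO (SD, n = 3). The log2 fold change was 4.32 (SE 0.79, adjusted p = 0.038, edgeR), and the ratio of summed counts was 23.9 (95% counting interval 9.06 to 89.6). This was the least secure of the 5 calls. It was lost when any of the 6 libraries was left out, HAP1 or HELLS KO, with an adjusted p of 0.087 to 0.11 (edgeR), and in replicates 1 and 2 alone (log2 fold change 3.74, adjusted p = 0.11, edgeR). Across these fits the log2 fold change ran from 3.68, without HELLS KO replicate 3, to 4.84.

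Per length, the called genes remained weakly expressed in HELLS KO. In mean FPKM, ZNF69 was at 1.88, ZNF433 at 1.73, ZNF878 at 1.31, ZNF844 at 0.898 and ZNF439 at 0.309 in HELLS KO, against 0.0070 to 0.195 in HAP1. The 26 members with at least 1 CPM in HAP1 had 0.294 to 22.1 FPKM in HELLS KO. In a fit with the replicate block, the same 5 members were called (2.03% of all tested genes were called higher in that fit), with adjusted p between 0.00040 and 0.0061 in edgeR. DESeq2 called these and ZNF560, against 1.65% of all genes it tested.

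The members that lie between or beside the called genes did not all move. ZNF440, just distal to ZNF439, had 285, 302 and 787 counts in the HAP1 libraries against 394, 380 and 907 in those of HELLS KO, and a log2 fold change of 0.28 (SE 0.24, adjusted p = 1.00, edgeR). ZNF700, between ZNF69 and ZNF763, had 405, 441 and 898 counts in the HAP1 libraries against 458, 462 and 929 in those of HELLS KO, and a log2 fold change of 0.06 (SE 0.16, adjusted p = 1.00, edgeR). Both were expressed in each genotype and their groups overlapped. ZNF700 is the gene with 53 promoter bases in common with ZNF69. ZNF763 had 8, 6 and 3 counts in the HAP1 libraries against 9, 2 and 4 in those of HELLS KO, too few to be tested. It stayed low in both genotypes.
Proximal to ZNF844, ZNF20 had 5, 1 and 15 counts in the HAP1 libraries against 12, 14 and 16 in those of HELLS KO. ZNF625 had 0 counts in every HAP1 library and 8, 1 and 8 in HELLS KO. Neither was tested. ZNF136, the next gene, was expressed in both genotypes, with 178, 190 and 597 counts in the HAP1 libraries against 227, 280 and 672 in those of HELLS KO. Its groups overlapped, and the log2 fold change was 0.29 (SE 0.33, adjusted p = 1.00, edgeR).

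In the distal stretch, 11 of 13 genes were tested and 0 were called in edgeR, none of them at an unadjusted p under 0.05. DESeq2, which tests genes with fewer counts, called 1. That gene was ZNF560 (9466355 to 9498616, - strand), a C2H2 zinc-finger gene with 0 counts in every HAP1 library and 6, 16 and 64 in HELLS KO. It is named here only because its values stood out. The HELLS KO libraries were all above 0, with replicate 3 the highest. ZNF560 had 1.39 ± 1.13 CPM (SD, n = 3) in HELLS KO and was at least 7.51-fold higher than the mean of 3 counts per HAP1 library. The filter on low counts left it out of the edgeR test. Without that filter the adjusted p was 0.0015 in edgeR, and in DESeq2 it was 0.00013. It was not called in either limma fit. In the 4 filtered edgeR fits with a library left out in which it was tested, the adjusted p was 0.10 to 0.17 (edgeR). Its call thus depended on the filter and on the tool. DESeq2 and edgeR without the filter were not repeated with a library left out.

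The 26 members with at least 1 CPM in HAP1 moved little. Their log2 fold changes ran from -0.88 to 0.40 with a median of 0.08, and 20 of the 26 were above 0. Over all tested genes, 9328 of 17925 were above 0. The groups overlapped in 25 of them. The exception was ZNF563 (12317477 to 12333720), with 105, 121 and 164 counts in the HAP1 libraries against 50, 60 and 117 in those of HELLS KO. All its HELLS KO libraries were below all HAP1 libraries, at 4.15 ± 0.686 CPM (SD, n = 3) against 7.67 ± 1.01 (SD, n = 3). The log2 fold change of -0.88 (SE 0.24) had an adjusted p of 0.20 in edgeR, 0.067 with the replicate block and 0.089 in DESeq2, so that it was not called. Among all tested genes, 5.09% had the HELLS KO libraries below those of HAP1 and 4.99% above.
In the next largest uncalled differences the groups overlapped. ZNF559 had 239, 221 and 591 counts in the HAP1 libraries against 360, 319 and 702 in those of HELLS KO, a log2 fold change of 0.40 (SE 0.22). For ZNF709, which lay just under 1 CPM in HAP1, the log2 fold change was -0.38 (SE 0.48), from 9, 21 and 18 counts in HAP1 to 14, 10 and 14 in HELLS KO. ZNF653, with 236, 246 and 319 counts in the HAP1 libraries against 385, 295 and 352 in those of HELLS KO, had a log2 fold change of 0.36 (SE 0.25). ZNF559 and ZNF653 were higher in HELLS KO in all 3 same-numbered pairs in CPM, and with the replicate block their adjusted p was 0.18 and 0.47 (edgeR). Without the block the adjusted p was 1.00 for each of these genes in edgeR.
The members with the highest mean FPKM over the 6 libraries were ZNF317 (21.4), ZNF121 (19.5), ZNF414 (17.4), ZNF266 (15.7) and ZNF561 (11.7), of which all lie in the distal stretch. ZNF317 had 1356, 1334 and 2993 counts in the HAP1 libraries against 1286, 1698 and 3285 in those of HELLS KO. ZNF121 had 1860, 1740 and 3955 in HAP1 and 1931, 2051 and 3947 in HELLS KO. ZNF414 had 792, 796 and 766 in HAP1 and 926, 764 and 738 in HELLS KO. Their groups overlapped, and the log2 fold changes of these 3 genes were 0.11, 0.05 and 0.02 (SE 0.19, 0.14 and 0.32). ZNF266 had 1067, 1031 and 2178 counts in the HAP1 libraries against 1058, 1266 and 2517 in those of HELLS KO, and ZNF561 had 861, 896 and 2231 and 1031, 1186 and 2176. Their log2 fold changes were 0.14 and 0.15 (SE 0.16 and 0.19).
ZNF699, in which inherited mutations cause a developmental syndrome, had 55, 49 and 199 counts in the HAP1 libraries against 49, 75 and 225 in those of HELLS KO. Its log2 fold change was 0.18 (SE 0.47). The remaining 14 expressed members had log2 fold changes from -0.21 (ZNF442) to 0.27 (ZNF443), none of them called.
ZNF558 had 807, 764 and 1921 counts in the HAP1 libraries against 776, 867 and 1951 in those of HELLS KO, and ZNF426 had 666, 715 and 1832 counts in the HAP1 libraries against 837, 875 and 1696 in those of HELLS KO. ZNF562 had 1211, 1011 and 2651 counts in the HAP1 libraries against 1342, 1350 and 2775 in those of HELLS KO, and ZNF846 had 73, 61 and 104 counts in the HAP1 libraries against 45, 57 and 163 in those of HELLS KO. All of these lie in the distal stretch, and their groups overlapped. ZNF627 had 423, 436 and 965 counts in the HAP1 libraries against 446, 442 and 938 in those of HELLS KO, and ZNF823 had 256, 234 and 655 counts in the HAP1 libraries against 294, 282 and 609 in those of HELLS KO. ZNF441 had 149, 158 and 478 counts in the HAP1 libraries against 127, 180 and 506 in those of HELLS KO, and ZNF44 had 224, 315 and 664 counts in the HAP1 libraries against 332, 299 and 646 in those of HELLS KO. ZNF442 had 135, 119 and 287 counts in the HAP1 libraries against 118, 103 and 260 in those of HELLS KO, and ZNF799 had 119, 136 and 290 counts in the HAP1 libraries against 152, 153 and 326 in those of HELLS KO. These are genes of the proximal stretch, and their groups overlapped too. ZNF443 had 144, 146 and 373 counts in the HAP1 libraries against 182, 187 and 441 in those of HELLS KO, and ZNF564 had 13, 12 and 36 counts in the HAP1 libraries against 15, 17 and 25 in those of HELLS KO. ZNF490 had 30, 30 and 95 counts in the HAP1 libraries against 19, 40 and 91 in those of HELLS KO, and ZNF791 had 863, 805 and 1991 counts in the HAP1 libraries against 998, 944 and 1936 in those of HELLS KO. The lowest of them, ZNF564, stayed at about 1 CPM in both genotypes.

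**Figure D2:**
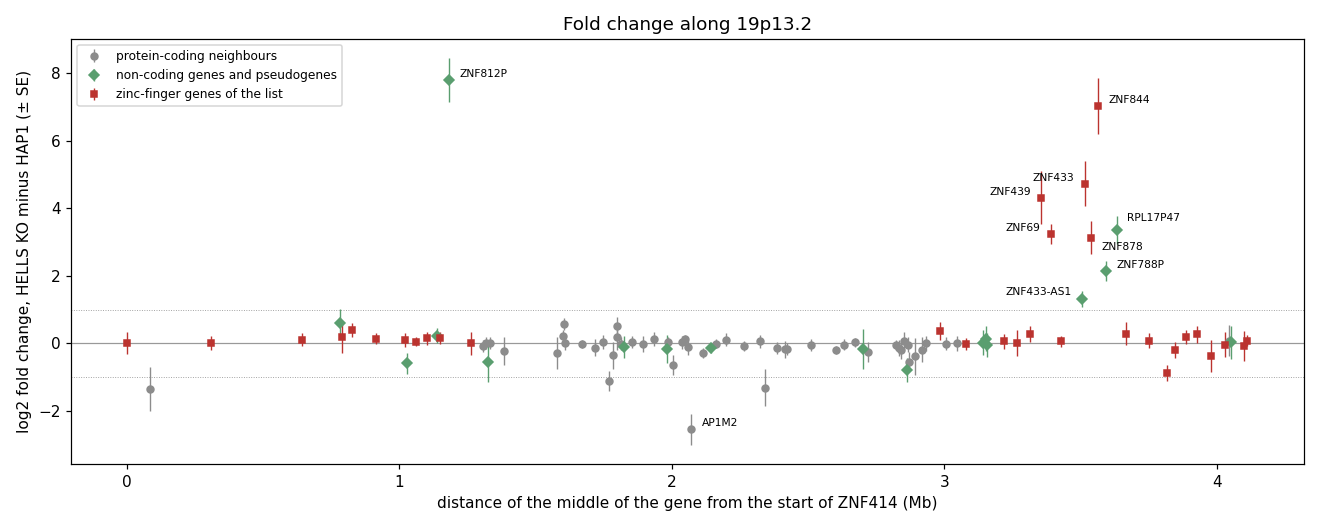
Log2 fold change of HELLS KO minus HAP1 with its SE (y axis) against the distance in Mb of the middle of each tested gene from the start of ZNF414 (x axis), for zinc-finger genes of the list (red squares), other protein-coding genes (grey circles) and non-coding genes and pseudogenes (green diamonds), with dotted lines at a log2 fold change of 1 and -1. Called genes are named, and the 5 called zinc-finger genes lie close together near the right end.

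The genes around the zinc-finger genes were compared next. Of 86 other protein-coding genes between the first and the last member, 52 were tested, 0 were called higher (edgeR; 1 at an unadjusted p under 0.05 and 0 called in DESeq2) and 1 was called lower (3 at an unadjusted p under 0.05). DESeq2 called 2 lower and edgeR with the replicate block 3. The median log2 fold change was -0.04. The gene called lower was AP1M2, which encodes a clathrin adaptor subunit of epithelial cells, with 24, 18 and 57 counts in the HAP1 libraries against 6, 3 and 7 in those of HELLS KO and a log2 fold change of -2.55 (SE 0.45, adjusted p = 0.031, edgeR). No member lies next to it, since it is in the part between the stretches. ICAM1, which encodes a cell adhesion molecule, was called lower in DESeq2 (adjusted p = 0.035) and with the replicate block (adjusted p = 0.023), at a log2 fold change of -1.11 (SE 0.30) and an adjusted p of 0.19 in edgeR without the block. ADAMTS10, a secreted metalloprotease gene, was called lower with the block (adjusted p = 0.047, edgeR), against an adjusted p of 0.90 without it.
Of 104 non-coding genes and pseudogenes of the region, 17 were tested and 4 were called higher (23.5%, against 1.5% of all tested genes). DESeq2 and edgeR with the replicate block also called 4 higher each. The 4 genes were named after their values were seen. As with the members, a gene low in HAP1 could be tested only where its HELLS KO libraries passed the filter on low counts. This held for RPL17P47 and ZNF812P, so the share of 23.5% is no rate among genes low in HAP1. ZNF788P, a zinc-finger pseudogene proximal to ZNF844 (12092468 to 12113048) on the strand opposite to ZNF20, had 139, 131 and 409 counts in the HAP1 libraries against 677, 675 and 1662 in those of HELLS KO. It was clearly expressed in HAP1 already, and its log2 fold change was 2.15 (SE 0.29, adjusted p = 0.011, edgeR). ZNF433-AS1, on the strand opposite to ZNF433, had 52, 63 and 113 counts in the HAP1 libraries against 184, 123 and 276 in those of HELLS KO (log2 fold change 1.33, SE 0.24, adjusted p = 0.034, edgeR). RPL17P47, a ribosomal protein pseudogene that overlaps the end of ZNF625, had 2, 2 and 5 counts in the HAP1 libraries against 25, 23 and 51 in those of HELLS KO (log2 fold change 3.36, SE 0.42, adjusted p = 0.0075, edgeR). ZNF812P, in the distal stretch next to ZNF562, had 0, 0 and 1 counts in the HAP1 libraries against 72, 64 and 193 in those of HELLS KO (log2 fold change 7.80, SE 0.65, adjusted p = 0.0015, edgeR). ZNF433-AS1 and ZNF788P thus lay at or beside called members, whereas RPL17P47 lay at the untested ZNF625 and ZNF812P in the distal stretch.

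Shared sequence and overlapping genes limit what the counts of several members mean. Reads of low mapping quality had been removed, and how reads on exons of more than 1 gene were counted is not given in the sources used here. Of 45 genes of chromosome 19 whose exons lie wholly inside exons of an opposite-strand gene with at least 1000 counts, 43 had 0 counts in all 6 libraries. Whether the counting separated the strands is not known. Reads counted for ZNF433-AS1 need not come from its strand alone. In 8 of the 38 members at least 40% of the exon bases lie in another gene of the count table, mostly a readthrough gene that joins neighbours. ZNF177, at 0 counts in every library, had 90.6% of its exon bases in the readthrough gene ZNF559-ZNF177. For ZNF625 the share was 83.2%, for ZNF709 79.4%, for ZNF564 69.9%, for ZNF20 54.0%, for ZNF490 51.1%, for ZNF562 50.7% and for ZNF763 44.5%. Low counts of these genes may therefore understate their expression. Among the called genes the share was 0% for ZNF439, ZNF69 and ZNF844, 17.5% for ZNF433, most of it under ZNF433-AS1, and 19.99% for ZNF878. In GENCODE release 44, 45.3% of the exon bases of ZNF844 also lie in newer genes that are not rows of the count table. The readthrough gene ENSG00000257355, the protein-coding neighbour between ZNF433 and ZNF878, had 0 counts in every library.
Members also resemble each other. Of all stretches of 31 bases in the annotated transcripts, 29.3% of those of ZNF69, 23.9% of ZNF439, 17.2% of ZNF844, 9.95% of ZNF878 and 9.63% of ZNF433 occurred in transcripts of a gene elsewhere, on either strand. The closest gene was ZNF440 for ZNF69 (12.8%) and ZNF439 (13.1%). ZNF440 did not move with them. The highest share was that of ZNF443, with 53.0%, of which ZNF799 alone held 44.2%, so that the division of reads between these 2 genes is uncertain. ZNF491, at 4, 2 and 3 counts in the HAP1 libraries against 4, 3 and 19 in those of HELLS KO, was too low to be tested.

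The batch label moved with the levels of most members. In the 26 members with at least 1 CPM in HAP1, the ratio of the CPM of replicate 3 to the mean of replicates 1 and 2 had a median of 1.41 in HAP1 and 1.26 in HELLS KO. Over all tested genes the medians were 1.02 and 1.01. ZNF414 went the other way, with 0.562 and 0.518, and so did ZNF653 with 0.771 and 0.614. ZNF699 had the highest ratios, 2.23 and 2.14. The part of the batch in these levels was not tested.

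**Figure D3:**
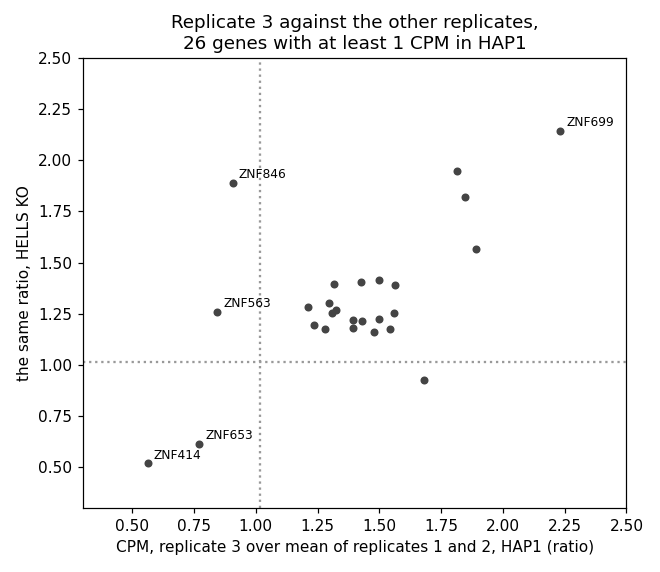
Ratio of the CPM of replicate 3 to the mean CPM of replicates 1 and 2 in HAP1 (x axis) and in HELLS KO (y axis), a point for each of the 26 members with at least 1 CPM in HAP1, with dotted lines at the medians over all tested genes. Most points lie above both lines, and ZNF414 and ZNF653 lie below both.

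Genes that act with KRAB zinc-finger proteins or silence their clusters were examined from a list of 22. All 22 were tested, 0 were called in edgeR, none at an unadjusted p under 0.05, and 0 in DESeq2. The log2 fold changes ran from -0.24, for HELLS, to 0.17 with a median of -0.01. TRIM28, the KRAB corepressor, had 4801, 4758 and 5560 counts in the HAP1 libraries against 4875, 4805 and 5575 in those of HELLS KO, a log2 fold change of -0.02 (SE 0.21). SETDB1, the histone methyltransferase that TRIM28 recruits, had a log2 fold change of -0.04 (SE 0.16). DNMT1, the maintenance DNA methyltransferase, lies in 19p13.2 between the stretches and had 5270, 5009 and 7427 counts in the HAP1 libraries against 4835, 5367 and 7639 in those of HELLS KO, a log2 fold change of -0.03 (SE 0.12). For DNMT3B, a de novo DNA methyltransferase, it was -0.10 (SE 0.13), and for UHRF1, which brings DNMT1 to replicated DNA, -0.02 (SE 0.15). The groups overlapped for each of these genes.

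Other zinc-finger genes, recognised by ZNF symbols, were taken for comparison. On chromosome 19 outside the list, 27 of 197 tested genes were called higher (13.7%) and 0 lower (edgeR; 1 lower at an unadjusted p under 0.05 and 1 called lower in DESeq2), with a median log2 fold change of 0.14. Off chromosome 19, 10 of 238 were called higher (4.20%) and 2 lower, with a median of 0.03. The share of 15.6% among the 32 tested members was near that of the rest of chromosome 19, and the difference was not tested. Both shares leave out genes removed by the filter on low counts.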

How the data were processed

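RNA-seq libraries of HAP1 and HELLS KO cells, 3 of each, were analysed. The authors aligned stranded read pairs to GRCh38 with STAR 2.7.3a, removed duplicated reads and reads of low mapping quality, and counted with featureCounts 2.0.6, and they deposited raw counts per gene. The annotation release is not given in the sources used here. The FPKM values deposited by the authors cover 24956 genes, and 100% of the values equalled, within 0.1%, the counts over DESeq2 size factors times 1 constant per gene.

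Groups and replicate numbers came from the sample records. Counts were tested with edgeR 4.0.16 in R 4.3.3 (filterByExpr, TMM, glmQLFit, glmQLFTest, Benjamini-Hochberg adjustment), genotype alone in the model. Standard errors were derived from the F statistic. Intervals of count ratios are exact conditional binomial. Of 60483 gene identifiers, 56321 matched GENCODE release 44 without version. In simulated counts in which 200 genes differed by 2 on the log2 scale, edgeR recovered 170 of 174 changed genes that were tested, DESeq2 162 of 200 and limma 149 of 200, with 11, 6 and 3 false calls. The simulated counts had the same spread setting in every gene and no shift of replicate 3, and limma was given them as CPM. These rates are therefore no measure of recovery in the real libraries.

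Alternatives were DESeq2 1.42.0, upper-quartile normalization, other filters, the replicate block, a batch term, replicates 1 and 2 only, each library left out, and limma 3.58.1 on log2(FPKM + 1) and log2(FPKM + 0.1), a scale that understates changes of low genes. Deviations of same-numbered libraries from their genotype mean correlated at 0.42, 0.20 and 0.78 across genes, and were taken as pairs in the block by a minimum of 0.1. HAP1 replicate 2 correlated better with HELLS KO replicate 1 (0.59), and HAP1 replicate 1 with HELLS KO replicate 2 at 0.33, so that only replicate 3 stood out as a pair. No 2 libraries of a genotype were copies. The chi-square per gene was 2.28 between HAP1 replicates 1 and 2, and 12.5 to 49.5 in the other pairs. These 2 HAP1 libraries were thus the most alike. The study calls the libraries biological replicates without saying that cultures were separate, so p-values measure only the spread between these libraries.

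Members and lists were chosen with earlier results of these data known. Members given in full were those called, the 5 uncalled ones with the largest log2 fold change, the 5 with the highest FPKM, and the genes next to called members. Of the markers and cofactors, the summed levels and 5 named cofactors are given, and 1 marker is not reported here.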

Additional observations from a re-analysis of the deposited data

How the results depend on the processing

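The number of members called higher, 5, was 5 or 6 with DESeq2, upper-quartile normalization, no filter, the replicate block and the batch term, and 4 in replicates 1 and 2 only and in limma on log2(FPKM + 0.1). It was 3 in limma on log2(FPKM + 1), which compresses low values, and 0 when 10 counts were required of each library, which leaves out every called member. It was between 2 and 4 when a library was left out, with 2 each without HAP1 replicate 1, without HELLS KO replicate 1 and without HELLS KO replicate 2. No member was called lower in any of the 15 alternatives. With the replicate block the count was 5 and no call of a member changed, while the genes called lower over the whole table went from 129 to 267. The median log2 fold change of the tested members lay between -0.00032 and 0.32 when a library was left out. It was lowest without HELLS KO replicate 3 and highest without HAP1 replicate 3, so its direction is not secure. The sign of some uncalled members turned when a library was left out: the log2 fold change ranged from -0.22 to 0.27 for ZNF414, -0.034 to 0.18 for ZNF121, -0.00032 to 0.25 for ZNF266, -0.037 to 0.26 for ZNF317 and -0.60 to 0.085 for ZNF709. For ZNF414 it was also -0.0048 in limma on log2(FPKM + 0.1) and -0.0038 on log2(FPKM + 1). The cause was not tested. Of 219 values of single members under these alternatives, 192 kept their direction and call, 17 lost the call and 10 changed sign. Only the 5 called genes could lose a call, whereas an uncalled gene that stayed uncalled counts as kept. Fits in which a gene was not tested are left out of this tally. Counts of at most 9 per library in HAP1 limit the size of the change for ZNF439, ZNF433, ZNF878 and ZNF844.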
